A study of Mus musculus with 4 samples.

Results

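The TGF-beta, BMP, activin and Id genes described here are *Tgfb1*, *Tgfb2*, *Tgfb3*, *Bmp4*, *Inhba*, *Mstn*, *Fst*, *Id1*, *Id2* and *Id3*, a list of 10 genes chosen by name among the 56748 gene IDs of the deposited counts. All 10 were found in the files, 8 had reads and were tested, and *Bmp4* and *Mstn* had none. Their RNA was counted in C2C12, an established mouse myoblast line whose genotype is labelled WT, grown in medium with 10% fetal bovine serum. The knockdown cells carried a mixture of 3 shRNAs against *Hnrnpl*, which encodes the RNA-binding protein hnRNP L, and the control cells carried a scrambled shRNA. Cells of either kind also carried the eGFP reporter of the shRNA plasmid and were selected as stable lines in puromycin. Each group had 2 libraries, from different passages of 1 selected line, so p-values measure the spread between passages and not between independently made lines. Each of the 2 labelled batches held 1 scrambled and 1 knockdown library, and RNA was sequenced directly on nanopore flow cells.

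TGF-beta ligands and activins bind paired type II and type I receptor kinases that phosphorylate Smad2 and Smad3, whereas BMPs act through Smad1, Smad5 and Smad9. Smad4 joins either group, and the complexes enter the nucleus, where the *Id* genes are classic targets of BMP signalling. Id proteins hold a helix-loop-helix but no basic DNA-binding region, so that they bind E proteins and keep them from pairing with myogenic factors such as MyoD. Myostatin and activin A restrain muscle growth, and follistatin binds and blocks them.

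On genes, 1387523 and 1676911 reads were counted in the scrambled libraries and 1374637 and 1229424 in the knockdown libraries. Counts on *Hnrnpl* itself were 358 and 656 in scrambled against 242 and 258 in knockdown, giving a log2 fold change of -0.78 (SE, the standard error, 0.18, adjusted p = 0.0112 from edgeR). The call of *Hnrnpl* was lost without scrambled 2 (-0.47, adjusted p = 0.164 from edgeR) and without knockdown 1 (-0.63, adjusted p = 0.283 from edgeR). Over all 8670 genes tested, 481 or 5.55% were called, which took an adjusted p under 0.05, a log2 fold change beyond 0.5 in size and normalized counts averaging over 10. Calls were higher in knockdown for 2.33% of the genes and lower for 3.22%. Of 10 myoblast markers, 8 had reads: the myogenic factor *Myf5* had 113 to 190 reads per library, but *Myod1* had 1 read in all and *Myog* none. The summed myoblast markers stood at 717 and 879 CPM (counts scaled to the reads counted in a library) in scrambled and 557 and 477 CPM in knockdown. Of the 6 tested, 3 were called lower. These were *Cdh15* at a log2 fold change of -2.55 (adjusted p = 2.03e-06 from edgeR), *Chrna1* at -1.53 (adjusted p = 3.4e-05 from edgeR) and *Des* at -0.56 (adjusted p = 0.0308 from edgeR). Another 2, *Megf10* at 0.52 (adjusted p = 0.0851 from edgeR) and *Vcam1* at 0.29 (adjusted p = 0.707 from edgeR), lay wholly higher without a call. Of 15 markers of differentiated muscle, 11 had no reads, and their sum was 16.7 to 19.5 CPM in scrambled and 7.27 to 15.5 CPM in knockdown. Of 8 osteoblast markers 5 had no reads, among them *Alpl* and *Sp7*, none was called, and the sum was 397 to 590 CPM in scrambled and 525 to 931 CPM in knockdown. Most of that sum was *Spp1* (510 and 313 CPM in scrambled against 864 and 458 CPM in knockdown), which stood at 0.65 on the log2 scale (adjusted p = 0.0974 from edgeR) and higher in knockdown within each batch, whereas the other tested gene, *Runx2*, was at a log2 fold change of -0.30. Of 10 fibroblast and adipogenic markers 3 had no reads, 1 was called higher, and the sum was 44.0 to 49.5 CPM in scrambled and 50.4 to 66.2 CPM in knockdown. The called gene was *Pparg* (15.1 and 18.5 CPM in scrambled against 52.4 and 39.9 CPM in knockdown). The other 2 tested, *Cebpa* at -2.12 (adjusted p = 0.0316 from edgeR, with too few reads for a call) and *Ly6a* at -1.06 (adjusted p = 0.113 from edgeR), lay lower in knockdown without overlap. A marker listed with few or no reads, *Myod1* included, is not taken as absent from the cells. Whether the marker levels bear on the members was not tested.

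All 3 *Id* genes were higher in knockdown, *Inhba* was lower, and the other 4 members with reads were not called. Members called were therefore 4 of 8 tested, beside 5.55% of all genes tested. The members were chosen with earlier results of these data known, so this share is given as a description only. Of the 8, 3 had knockdown libraries that lay wholly above the scrambled ones, which held for 26.4% of all genes tested, and 4 had them wholly below, which held for 26.0%. In bulk RNA, a change in the number of cells that express a gene and a change in RNA per cell cannot be told apart.

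Promoters of *Id2*, *Id3* and *Inhba*, which were called, and of *Tgfb2*, which had the lowest fold change of the members, are shown first. They were taken from RefSeq (GRCm38.p6), whose table matched 7 of the 10 members, and each gives the 250 bases before the start, on the gene's strand. No promoter was matched for *Tgfb3*, *Fst* and *Id1*, although *Id1* was called. Capitals mark GGCGCC, a GC-rich Smad1 and Smad5 element, and CAGAC or its complement GTCTG, the Smad3 and Smad4 element.
*Id2*, chr12:25096093-25096342, reverse strand: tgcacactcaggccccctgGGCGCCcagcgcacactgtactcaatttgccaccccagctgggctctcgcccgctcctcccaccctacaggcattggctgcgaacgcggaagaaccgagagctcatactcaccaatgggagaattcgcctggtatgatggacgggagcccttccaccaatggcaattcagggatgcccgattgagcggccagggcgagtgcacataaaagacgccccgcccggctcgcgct
*Id3*, chr4:136143572-136143821, forward strand: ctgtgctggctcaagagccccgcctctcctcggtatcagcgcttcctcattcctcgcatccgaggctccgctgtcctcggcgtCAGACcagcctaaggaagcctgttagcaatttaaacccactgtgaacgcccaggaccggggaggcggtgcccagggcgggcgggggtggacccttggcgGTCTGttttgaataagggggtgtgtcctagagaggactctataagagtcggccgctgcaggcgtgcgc
*Inhba*, chr13:16011601-16011850, forward strand: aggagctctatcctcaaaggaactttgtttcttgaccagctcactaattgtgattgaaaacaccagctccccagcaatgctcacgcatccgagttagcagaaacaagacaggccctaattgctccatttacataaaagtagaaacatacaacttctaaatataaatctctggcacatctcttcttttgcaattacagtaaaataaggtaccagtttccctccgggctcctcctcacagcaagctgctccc
*Tgfb2*, chr1:186705990-186706239, reverse strand: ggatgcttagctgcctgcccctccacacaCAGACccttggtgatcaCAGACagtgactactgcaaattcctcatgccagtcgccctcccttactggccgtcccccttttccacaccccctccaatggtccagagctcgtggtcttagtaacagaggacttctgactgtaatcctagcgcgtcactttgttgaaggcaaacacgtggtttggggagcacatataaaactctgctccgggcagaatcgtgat

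The Smad elements GGCGCC and also CAGAC and the E-box CANNTG, to which basic helix-loop-helix factors bind, were searched on both strands in this window. Of 32851 RefSeq promoters of the same length, 9.59% held GGCGCC, 42.2% CAGAC and 66.2% CANNTG. *Id2* held GGCGCC once, with its first base at -231 from the start, and an E-box at -196. *Id3* held CAGAC at -167 and its complement at -68, and neither of the other motifs. *Tgfb2* held CAGAC at -221 and -204 and an E-box at -51. None of the motifs was found in the windows of *Inhba* and *Tgfb1*, and no matches overlapped in these 5 windows. Of the matched members without reads, *Mstn* held CAGAC at -244 and -120 and 4 E-boxes, and *Bmp4* held 3 E-boxes and neither Smad element. A match is a description of letters, and none of these windows was measured in the libraries.

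A further sequence feature concerns hnRNP L itself, which is known to bind runs of CA in RNA. In the GENCODE transcripts of the members (release vM39, GRCm39), *Inhba* held a run of 20 CA in the 3' UTR, in exon 3 of 3 at chr13:16202336-16202375 on the forward strand. *Tgfb2* held a run of 17 CA in the 3' UTR, in exon 7 of 7 at chr1:186355761-186355794 on the reverse strand. The first bases of either run, with 4 bases before it, are shown because these ligands had the lowest fold changes among the members, and capitals mark the CA repeats.
*Inhba*: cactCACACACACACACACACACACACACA
*Tgfb2*: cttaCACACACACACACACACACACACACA

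*Bmp4*, which had no reads, held a run of 25 CA, and *Tgfb3* and *Mstn* held 5 each. *Tgfb1*, *Fst*, *Id1*, *Id2* and *Id3* held no run of 4 or more. Only unbroken runs in spliced protein-coding transcripts were searched. Introns and CA-rich clusters, which the paper also names as places where hnRNP L binds, were not covered, and binding was not measured. Among 8231 tested protein-coding genes, 6.16% (507) held a run of at least 10 CA. Of these 507, 4.93% were called higher and 3.16% lower, beside 2.38% and 3.04% of all 8231, and their median log2 fold change was -0.0043.

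*Id2* had the largest fold change of the members. Its gene (ENSMUSG00000020644.10) lies on the reverse strand at chr12:25143798-25147282 of GRCm39, and it had 150 and 189 reads in scrambled against 378 and 380 in knockdown. Normalized counts, which are reads scaled with TMM factors to libraries of average size, were 157 and 159 in scrambled against 377 and 444 in knockdown. The scrambled libraries stood close together at 158 ± 1.38 (SD, n = 2), and either knockdown library was far above them, at 410 ± 47.7 (SD, n = 2). Its log2 fold change was 1.37 (SE 0.15, 95% interval 1.06 to 1.69, adjusted p = 1.85e-05 from edgeR's quasi-likelihood test). This is a 2.59-fold rise, with rank 56 from the top among the log2 fold changes of the genes tested. Within batch 1 the ratio was 2.40 and within batch 2 it was 2.79.

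*Id1* (ENSMUSG00000042745.10, chr2:152566218-152579544, forward strand) had 199 and 212 reads in scrambled against 348 and 337 in knockdown. Its normalized counts were 208 and 178 in scrambled against 347 and 394 in knockdown, so that the lower knockdown library exceeded the higher scrambled library. The log2 fold change was 0.94 (SE 0.15, 95% interval 0.62 to 1.26, adjusted p = 0.000935 from edgeR), a 1.92-fold rise. The ratio was 1.66 within batch 1 and 2.21 within batch 2. Without knockdown 1 the log2 fold change was 1.03, and the adjusted p of edgeR was 0.0757.

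*Id3* (ENSMUSG00000007872.4, chr4:135870808-135873066, forward strand) had 211 and 247 reads in scrambled against 371 and 293 in knockdown. Normalized counts of 221 and 208 in scrambled stood below 370 and 342 in knockdown, without overlap. Its log2 fold change was 0.73 (SE 0.15, 95% interval 0.43 to 1.04, adjusted p = 0.00459 from edgeR), a 1.66-fold rise, and the ratios within the batches were nearly the same, 1.67 and 1.65. Without knockdown 1 it was 0.67, with an adjusted p of 0.145 from edgeR. *Id4*, the remaining gene of the family, had no reads in any library.

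Summed over the family, the *Id* genes had 560 and 648 reads in scrambled against 1097 and 1010 in knockdown. Their summed normalized counts averaged 566 ± 29.1 in scrambled against 1137 ± 61.9 in knockdown (SD, n = 2 each), a ratio of 2.01. *Id2* made up 26.8% (95% Wilson interval 23.3% to 30.6%) and 29.2% (25.8% to 32.8%) of the *Id* reads in scrambled, and 34.5% (31.7% to 37.3%) and 37.6% (34.7% to 40.7%) in knockdown. *Id3* made up 37.7% and 38.1% in scrambled and 33.8% and 29.0% in knockdown, whereas the share of *Id1* was 32.7% to 35.5% in scrambled and 31.7% to 33.4% in knockdown. Both knockdown libraries exceeded the scrambled ones in the share of *Id2*, although the intervals of scrambled 2 and knockdown 1 overlapped. The intervals cover counting error only. With 2 libraries a group an exact two-sided permutation test cannot go below p = 0.333, so the shares are given without a test.

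The chromosomes of the *Id* genes had medians near zero: -0.052 for chromosome 2, -0.028 for chromosome 12 and -0.071 for chromosome 4, as log2 fold changes over the genes tested. Genes within 1 Mb had a median of -0.036 around *Id1* (21 genes), 0.12 around *Id2* (4 genes) and 0.045 around *Id3* (18 genes). Of these neighbours, 1 was called higher, beside *Id1*, and none lower.

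**Figure D1:**
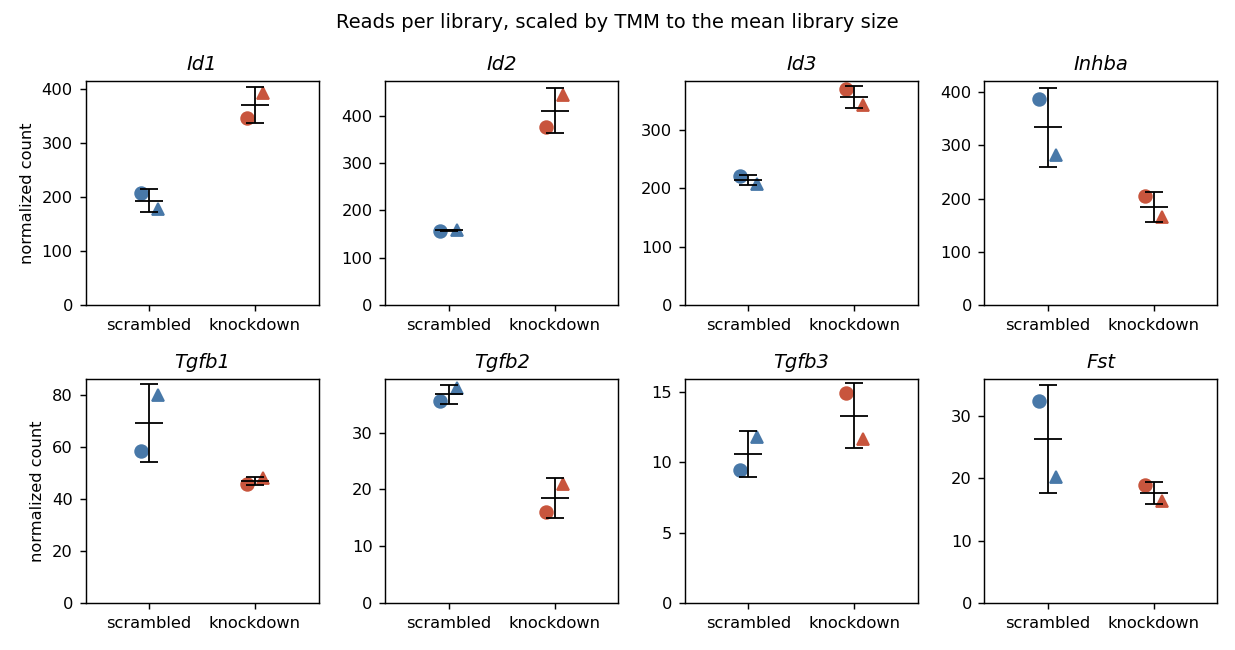
Normalized counts (reads scaled with TMM factors, linear axes from 0) of the 8 members with reads, in the scrambled and the knockdown libraries. Circles are batch 1 and triangles batch 2, and bars show the mean and SD of 2 libraries. All 3 *Id* genes lie higher in both knockdown libraries, with *Id2* at 157 and 159 against 377 and 444, and *Inhba*, *Tgfb1*, *Tgfb2* and *Fst* lie lower.

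Among the ligands, *Inhba* was called. It encodes the beta A subunit that forms activin A (ENSMUSG00000041324.15, chr13:16186373-16206206, forward strand), and it had 369 and 334 reads in scrambled against 205 and 141 in knockdown. The normalized counts were 386 and 281 in scrambled against 204 and 165 in knockdown, with both knockdown libraries below the lower scrambled one. The log2 level of *Inhba* fell by 0.84 (SE 0.17, 95% interval -1.21 to -0.48, adjusted p = 0.00591 from edgeR), and its mean was 44.7% lower. The ratios were 0.529 within batch 1 and 0.586 within batch 2. The median log2 fold change of its chromosome was 0.23 and that of its only tested neighbour within 1 Mb was 0.58, both above zero. The adjusted p of edgeR was 0.0503 without scrambled 1, 0.138 without knockdown 1 and 0.0553 without knockdown 2, with log2 fold changes between -1.01 and -0.60.

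*Tgfb2* (ENSMUSG00000039239.15, chr1:186354985-186438294, reverse strand), a TGF-beta ligand, had 34 and 45 reads in scrambled against 16 and 18 in knockdown. Its normalized counts of 15.9 and 21.0 in knockdown lay below 35.6 and 37.9 in scrambled. The log2 fold change was -1.0 (SE 0.31, 95% interval -1.66 to -0.34), but the adjusted p of edgeR was 0.0649 and *Tgfb2* was not called. It was called with no filter on low counts, with at least 10 counts asked for in every library and with the chromosome medians removed, where the adjusted p of edgeR was 0.0448, 0.0498 and 0.0393. By DESeq2 *Tgfb2* was not called. There the adjusted p was 0.354 in the Wald test with local fit, and 0.729 (Wald test) and 0.805 (likelihood ratio test) with parametric fit. The median of chromosome 1 was 0.19.

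*Tgfb1* (ENSMUSG00000002603.16, chr7:25386390-25404506, forward strand), which encodes the TGF-beta most widely expressed in tissues, had 56 and 95 reads in scrambled against 46 and 41 in knockdown. The normalized counts were 58.6 and 79.9 in scrambled against 45.8 and 47.9 in knockdown, without overlap. Its log2 fold change of -0.58 (SE 0.23, 95% interval -1.06 to -0.10) had an unadjusted p of 0.0208 and an adjusted p of 0.143 from edgeR. It was -0.77 without scrambled 1 and -0.33 without scrambled 2. *Tgfb3* (ENSMUSG00000021253.8, chr12:86102756-86126301, reverse strand) had few reads, 9 and 14 in scrambled against 15 and 10 in knockdown. Its groups overlapped, and its log2 fold change was 0.32 (95% interval -0.56 to 1.21, adjusted p = 0.709 from edgeR), which leaves either direction within the interval, and it was 0.12 without knockdown 1 and 0.50 without scrambled 2. Summed over the TGF-beta ligands, normalized counts were 104 and 130 in scrambled against 76.7 and 80.6 in knockdown, a ratio of 0.675, given as a description.

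*Fst*, which encodes follistatin (ENSMUSG00000021765.10, chr13:114588731-114595521, reverse strand), had 31 and 24 reads in scrambled against 19 and 14 in knockdown. Normalized, these were 32.5 and 20.2 in scrambled against 18.9 and 16.4 in knockdown, where scrambled 2 and knockdown 1 nearly met. The log2 fold change of -0.54 (95% interval -1.29 to 0.21, adjusted p = 0.402 from edgeR) was not called, and it was -0.19 without scrambled 1 and -0.87 without scrambled 2. Reads of *Inhba* per read of *Fst*, the activin subunit and its binding protein, were 11.9 and 13.9 in scrambled against 10.8 and 10.1 in knockdown. *Fstl3*, which encodes a related activin-binding protein, had 1 read in all libraries together.

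*Bmp4* (ENSMUSG00000021835.16, chr14:46620250-46636745, reverse strand) and *Mstn* (ENSMUSG00000026100.7, chr1:53100799-53107240, forward strand) were listed at 0 reads in every library. At 3 counts, a 0 allows 1.79 to 2.44 CPM per library. For *Bmp4* the limit may not hold if strand was ignored in counting, since HTSeq sets aside a read that overlaps more than 1 gene. Exons of the lncRNA *Gm15217* on the opposite strand cover 141 of its last 500 bases. Those of the opposite-strand lncRNA *Gm15222* share 1178 of its exon bases outside that window. *Mstn*, whose product is myostatin, had no overlapping gene in the annotation. No other member had an exon of another gene in its last 500 bases, although each except *Tgfb1* and *Mstn* shared exon bases with an opposite-strand gene elsewhere. Longer reads could reach such bases, so counts of these members, the *Id* genes among them, may be affected in the same way. Whether strand was used in counting is not given in the sources used here. *Col1a1*, a collagen gene, was likewise listed at 0 in every library and *Tagln*, which encodes transgelin, at 1 read in all, both chosen after their values were seen, so a listed 0 is not taken as absence.

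**Figure D2:**
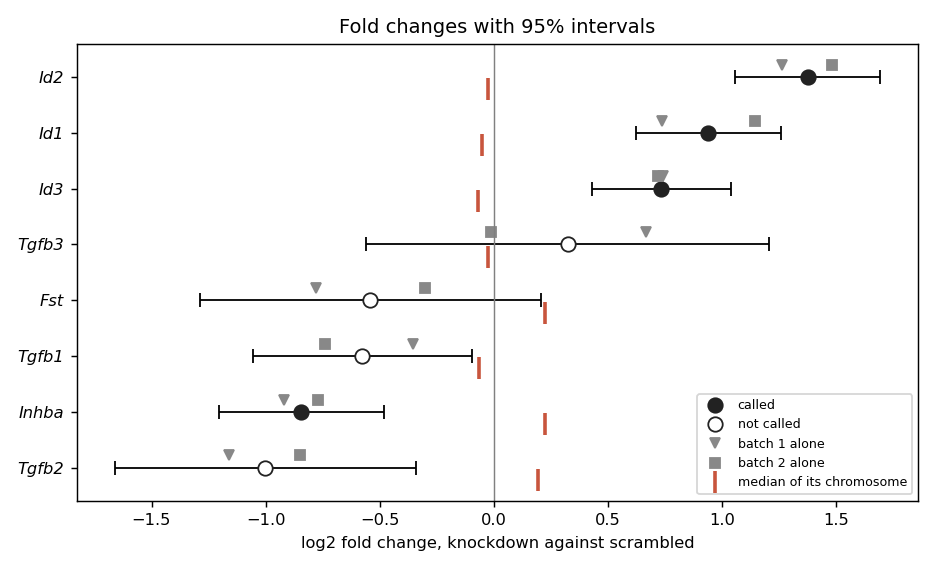
Log2 fold change (x axis, knockdown against scrambled) of the 8 members tested, with the 95% interval of edgeR. Filled circles are called, grey marks give each batch alone, and red ticks give the median of the gene's chromosome. The 3 *Id* genes lie between 0.73 and 1.37 with intervals above zero, *Inhba* and *Tgfb2* at -0.84 and -1.0 with intervals below zero, and *Tgfb3* and *Fst* have intervals across zero.

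The other genes of the pathway were read from lists chosen with earlier results of these data known, so shares called are a description only. The lists held 127 genes, of which 83 had reads and 53 were tested. Of these, 24 had a log2 fold change above zero and 29 below, with a median of -0.088 beside -0.00059 for all genes tested, and 10 (18.9%) were called, 5 in each direction, beside 5.55% of all genes tested. Without knockdown 1 none of them was called, and without knockdown 2 there were 5 calls. None of 8 receptors, 17 Smads and Smad regulators or 4 helix-loop-helix partners tested was called, which is near the background of 5.55% for lists this short. Of the other ligands 2 were tested. *Inhbb*, which encodes the beta B subunit of activins, had 66 and 94 reads in scrambled against 110 and 62 in knockdown (log2 fold change 0.30, adjusted p = 0.425 from edgeR), with overlap. *Gdf11*, a close relative of *Mstn*, had 27 and 44 reads in scrambled against 13 and 24 in knockdown (log2 fold change -0.72, adjusted p = 0.250 from edgeR), with scrambled 1 and knockdown 2 nearly equal once normalized, at 28.3 and 28.0. *Bmp2* had no reads, and these ligands were picked with their values known.

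The receptors and co-receptors tested had a median log2 fold change of 0.038. The lowest was *Tgfbr3*, chosen after its value was seen, which encodes the co-receptor betaglycan. It had 13 and 14 reads in scrambled against 5 and 4 in knockdown, and its log2 fold change of -1.36 had an adjusted p of 0.112 from edgeR. *Tgfbr2*, the type II receptor of TGF-beta, had 69 and 81 reads in scrambled against 96 and 64 in knockdown. Its log2 fold change was 0.29 (95% interval -0.12 to 0.70), or 0.092 without knockdown 1 and 0.66 with chromosome medians removed, where its chromosome had a median of -0.37. *Tgfbr1*, its type I partner, was at 0.11 (-0.55 to 0.77) and turned to -0.13 without scrambled 1. The type II BMP receptor *Bmpr2* was at 0.075 (-0.29 to 0.44). *Bmpr1a*, a type I BMP receptor, had 131 and 124 reads in scrambled against 82 and 83 in knockdown. Its log2 fold change of -0.43 had an adjusted p of 0.183 from edgeR, and the median of its chromosome was -0.36. It was -0.067 with chromosome medians removed and -0.23 without scrambled 1. *Acvr1* was at -0.20 (-0.65 to 0.24), or -0.030 without scrambled 2, and the activin receptor *Acvr2a* at 0.40 (-0.56 to 1.36) with 8 to 12 reads per library. *Acvr1b*, with 2 to 8 reads, and *Acvr2b*, with 2 or fewer, were not tested.

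Of the Smads that act below BMP receptors, *Smad1* had 37 and 52 reads in scrambled against 35 and 18 in knockdown (log2 fold change -0.54, adjusted p = 0.295 from edgeR), and it was -0.98 without knockdown 1 and -0.25 without knockdown 2. *Smad5* was at 0.20 (95% interval -0.25 to 0.64), and *Smad9*, with 0 reads in scrambled against 1 and 4 in knockdown, was not tested. *Smad3*, which acts below TGF-beta and activin receptors, had 37 and 51 reads in scrambled against 33 and 13 in knockdown. Its log2 fold change of -0.73 had an unadjusted p of 0.0345 and an adjusted p of 0.188 from edgeR, and it was -1.43 without knockdown 1 and -0.32 without knockdown 2. The median of its chromosome was -0.37, and with chromosome medians removed *Smad3* was at -0.37. *Smad2* was at -0.12 (-0.50 to 0.27) and the shared partner *Smad4* at -0.29 (-0.69 to 0.11), which was -0.025 without scrambled 1, -0.54 without scrambled 2 and -0.012 with chromosome medians removed. The inhibitory *Smad7* had 72 and 83 reads in scrambled against 91 and 86 in knockdown, and the log2 fold change of 0.40 had an adjusted p of 0.218 from edgeR, or 0.67 and 0.0502 with chromosome medians removed. *Smad6*, the other inhibitory Smad, was at 0.080 (-0.85 to 1.01) on 9 to 14 reads per library.

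Of the 7 tested genes of latency and ligand processing, 2 were called higher and 1 lower, and of the 3 tested antagonists 2 were called higher, beside 2.33% higher and 3.22% lower of all genes tested. *Grem1*, which encodes the BMP antagonist gremlin 1, had 371 and 478 reads in scrambled against 545 and 623 in knockdown and rose by 0.68 on the log2 scale (SE 0.15, adjusted p = 0.0102 from edgeR). *Twsg1*, whose product binds BMPs together with chordin, had 92 and 123 reads in scrambled against 151 and 125 in knockdown. It rose by 0.57 on the log2 scale (adjusted p = 0.0475 from edgeR), and only 4 of 15 alternatives left the adjusted p under 0.05. The median of its chromosome was 0.19, and with chromosome medians removed *Twsg1* was at 0.37 (adjusted p = 0.292 from edgeR). With the labelled batch as a replicate block, edgeR gave an adjusted p of 0.0563. *Thbs1*, which encodes thrombospondin 1, an activator of latent TGF-beta, had 848 and 1168 reads in scrambled against 1620 and 972 in knockdown. It rose by 0.56 on the log2 scale (adjusted p = 0.0429 from edgeR), or by 0.28 without knockdown 1, and edgeR with the replicate block gave an adjusted p of 0.0764. *Ltbp2*, of the latent TGF-beta binding protein family, had 28 and 30 reads in scrambled against 53 and 56 in knockdown and rose by 1.11 on the log2 scale (adjusted p = 0.0149 from edgeR). *Fbn1*, which encodes fibrillin 1, a microfibril protein that tethers latent complexes, had 110 and 157 reads in scrambled against 51 and 53 in knockdown, and it fell by 1.14 on the log2 scale (adjusted p = 0.00117 from edgeR). Without knockdown 1, the adjusted p of edgeR reached 0.131 for *Ltbp2*, 0.128 for *Fbn1*, 0.248 for *Twsg1* and 0.392 for *Thbs1*, and without knockdown 2 it reached 0.107 for *Grem1*. By the DESeq2 Wald test with local fit, *Ltbp2* (adjusted p = 0.104) and *Twsg1* (adjusted p = 0.265) were not called.

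Of 14 tested genes listed as TGF-beta targets, 3 were called lower and 1, *Ltbp2*, higher, beside 3.22% lower and 2.33% higher of all genes tested. *Acta2*, which encodes smooth muscle alpha-actin, had 11542 and 11205 reads in scrambled against 3668 and 4067 in knockdown, and its log2 level fell by 1.36 (SE 0.17, adjusted p = 7.06e-05 from edgeR). The median of its chromosome was -0.23 and that of its 6 tested neighbours within 1 Mb was -0.45. With chromosome medians removed *Acta2* was at -1.13. *Junb*, an AP-1 subunit, had 312 and 426 reads in scrambled against 242 and 152 in knockdown, and its log2 level fell by 0.71 (SE 0.16, adjusted p = 0.0125 from edgeR). Without knockdown 1, edgeR no longer called *Acta2* (log2 fold change -1.18) or *Junb* (-0.95), and without knockdown 2 the call of *Junb* (-0.51) was lost. The 14 genes had a median of -0.19. Among the 10 that were not called, *Pmepa1*, a target that feeds back on the pathway, was at 0.055 with 487 to 606 reads per library, and *Fn1*, which encodes fibronectin, at -0.24. These 2 were picked after their values were seen.

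Of 6 tested genes listed as BMP targets besides the *Id* genes, 2 were called higher and 1 lower, beside the same 2.33% and 3.22%. *Atoh8*, a helix-loop-helix transcription factor, had 5 and 8 reads in scrambled against 25 and 18 in knockdown and rose by 1.91 on the log2 scale (SE 0.43, adjusted p = 0.0105 from edgeR). The median of its chromosome was 0.28. *Grem1*, above, is on this list also. *Hes1*, better known as a Notch target, had 65 and 107 reads in scrambled against 43 and 33 in knockdown, and its log2 level fell by 0.96 (SE 0.23, adjusted p = 0.0161 from edgeR). The median of its chromosome was 0.30. Without knockdown 1, edgeR no longer called *Atoh8* (log2 fold change 1.77) or *Hes1* (-1.05). The call of *Hes1* was also lost without scrambled 2 (-0.74) and without knockdown 2 (-0.89). By DESeq2 neither *Atoh8* nor *Hes1* was called, with adjusted p of 0.120 and 0.108 in the Wald test with local fit.

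The E proteins that Id proteins bind were not called. *Tcf3* had 105 and 167 reads in scrambled against 136 and 125 in knockdown (log2 fold change 0.16, 95% interval -0.20 to 0.52). *Tcf4* was at -0.55 (adjusted p = 0.193 from edgeR) and *Tcf12* at -0.38 (adjusted p = 0.205 from edgeR), with knockdown libraries below the scrambled ones in either case. The medians of their chromosomes were -0.28 and -0.37, and with chromosome medians removed *Tcf4* was at -0.27 and *Tcf12* at -0.014. Without knockdown 1 they were at -0.96 and -0.56, and without knockdown 2 at -0.26 and -0.23. *Myf5*, a myogenic partner of E proteins, had 157 and 190 reads in scrambled against 158 and 113 in knockdown (log2 fold change -0.16, adjusted p = 0.615 from edgeR), and it was -0.40 with chromosome medians removed and -0.042 without knockdown 2.

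**Figure D3:**
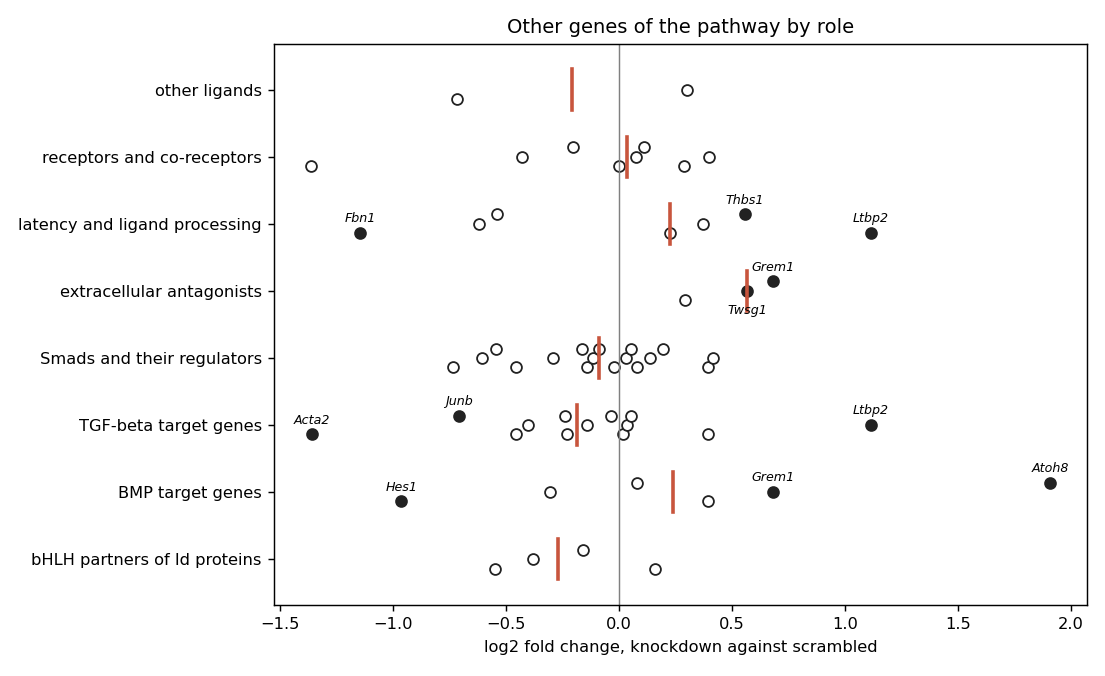
Log2 fold change (x axis, knockdown against scrambled) of tested genes of the pathway other than the members, by list, with 1 called TGF-beta target not drawn. Each circle is 1 gene, filled and named where it was called, red bars are medians of whole lists, and a gene on several lists is drawn in each. Calls lie among ligand processing, antagonists and target genes, with none among receptors, Smads or helix-loop-helix partners.

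Over 15 alternative settings, the adjusted p of *Id2* stayed under 0.05 in all 15, that of *Id1* in 14, that of *Id3* in 13 and that of *Inhba* in 12. Leaving out each library in turn gave log2 fold changes between 1.25 and 1.49 for *Id2*, 0.82 and 1.05 for *Id1*, 0.67 and 0.79 for *Id3*, and -1.07 and -0.60 for *Inhba*. Without knockdown 1, *Id2* was the only member called, and the calls over all genes were 20.

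**Figure D4:**
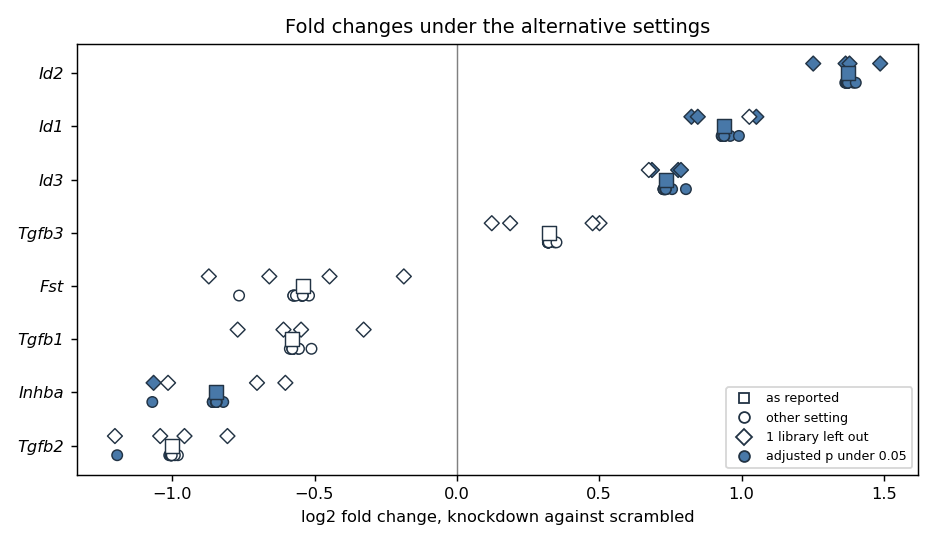
Log2 fold change (x axis, knockdown against scrambled) of the 8 members tested, as reported (squares), under other settings (circles) and with 1 library left out (diamonds). Blue symbols had an adjusted p under 0.05, and some symbols cover others. The 3 *Id* genes stay at 0.67 or above and *Inhba* and *Tgfb2* at -0.60 or below in every setting drawn.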

How the data were processed

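Reads were basecalled with guppy and aligned to GRCm39 by the authors with minimap2 2.17. Their HTSeq 0.9.1 gene counts were deposited as whole counts without normalization. SAMtools is also named in the submitters' processing notes. The annotation release and the strand setting are not given in the sources used here. Of 56748 gene IDs, 56017 were matched to GENCODE vM39 for symbols and positions. Reads that HTSeq set aside were left out of library sizes, and between 56.5% and 57.8% of the reads listed were counted on genes.

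The knockdown and scrambled libraries were compared in edgeR 4.0.16 under R 4.3.3, using TMM factors, filterByExpr and the quasi-likelihood test in 1 fit over 8670 genes, and p-values were adjusted over all of them by the Benjamini-Hochberg method. To give normalized counts, each library was scaled by its TMM factor to the mean size. A gene was called at an adjusted p under 0.05, with a log2 fold change beyond 0.5 in size and normalized counts averaging over 10. These are the thresholds of the study, which applied them to DESeq2 with the Wald test and local fit. That test is an alternative here and gave 228 calls against 481 from edgeR, so the calls are not those of the study. Standard errors were derived from the F statistic. The scripts were tested on simulated data with 200 changed genes.

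The labels give the replicate number as the batch, which pairs the libraries. Across 7705 genes, scrambled 1 and knockdown 1 deviated from their groups with a correlation of -0.014. The fit had no block, as in the study, and the block was an alternative. The others were DESeq2 1.42.0 with the Wald and likelihood ratio tests, RLE and upper quartile factors, the robust quasi-likelihood test and other filters on low counts. Also run were leaving out mitochondrial genes and *Rn18s*, removal of chromosome medians, stricter thresholds, and leaving out each library.

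The members and gene lists were chosen with earlier results of these data known. The genes named are every member, *Hnrnpl*, each listed pathway gene with an adjusted p under 0.05, the main receptors, the Smads, *Fstl3* and the helix-loop-helix partners, and others named, markers among them, were chosen after their values were seen. For 1 called gene of the TGF-beta target list, values are not reported here, though it is in the counts. Promoters came from RefSeq (GRCm38.p6) and CA runs from GENCODE transcripts.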

Additional observations from a re-analysis of the deposited data

How the results depend on the processing

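With 2 libraries a group the spread rests on few degrees of freedom, and *Tgfb3*, *Fst* and *Tgfb2* had under 50 reads per library, which limits what their intervals can show. With a library left out, the gene set was kept and the lone library was assumed to vary like the others; the cause of the changes below was not tested. The replicate block left members called at 4 and pathway genes called at 8 against 10, and apart from *Thbs1* and *Twsg1* it changed no call among the members, *Hnrnpl* and the genes named by rule, for which it was run.

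Members called were 4, or 1 with an absolute log2 fold change over 1 asked for (*Id2*), and 1 to 4 with single libraries left out. Calls over all genes were 481, but 228, 115 and 112 by DESeq2 (Wald test with local fit, Wald test and likelihood ratio test with parametric fit), 285 with the chromosome medians removed, 199 at an adjusted p under 0.01, 187 at an absolute log2 fold change over 1, and 20 to 444 with libraries left out. Pathway genes called were 10, but 6, 3 and 3 by the same DESeq2 tests (*Ltbp2*, *Twsg1*, *Hes1* and *Atoh8* lost in all of them, *Thbs1*, *Grem1* and *Junb* with the parametric fit), 3 and 4 at the stricter thresholds, and 0 to 9 with libraries left out. By DESeq2 with the parametric fit, *Hnrnpl* stayed at -0.78 with an adjusted p of 0.0567 (Wald) and 0.0670 (likelihood ratio), and *Id3* at 0.73 with 0.0519 (likelihood ratio). *Tgfb2* passed the threshold of edgeR at -1.0 with no filter, -1.01 with at least 10 counts in every library and -1.19 with chromosome medians removed. With libraries left out, *Hnrnpl* was between -1.03 and -0.47, *Tgfb2* between -1.20 and -0.81, *Inhba* between -1.07 and -0.60, *Id1* between 0.82 and 1.05 and *Id3* between 0.67 and 0.79. The sign turned for *Bmpr2* (-0.12), *Smad2* (0.16), *Smad5* (-0.028) and *Tcf3* (-0.081) with chromosome medians removed, and with libraries left out for *Tgfbr1* (-0.13 to 0.44), *Acvr2a* (-0.024 to 0.87), *Bmpr2* (-0.047 to 0.20) and *Smad6* (-0.25 to 0.38). *Tgfb3*, *Atoh8*, *Acvr2a* and *Smad6* were not tested with at least 10 counts in every library.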
